A study of Mus musculus with 24 samples.

Results

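The cortex of Cdr1as knockout mice was compared with the cortex of wild-type mice, using 6 of the 24 libraries of a study of 4 brain regions. The groups were 3 libraries from dissected cortex labelled as Cdr1as knockout and 3 from dissected cortex labelled as wild type, all from C57BL/6 mice. The other 18 libraries came from cerebellum, hippocampus and olfactory bulb, again with 3 per genotype, and served only to show where the cortex differed and to find genes of neighbouring tissue. The labels give no age, do not say how the allele was made, and do not state whether each library of a group is its own animal. P-values therefore speak only to the spread among these libraries, which may be technical. Total RNA was selected for poly(A) tails, and reads were counted per gene.

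Cdr1as is a circular RNA of neurons, made by joining a splice donor to an upstream acceptor, and it carries many binding sites for the microRNA miR-7 and a site for miR-671, which cuts it. A microRNA pairs with target messages mainly through its seed, bases 2 to 8, and lowers their stability or translation. Immediate-early genes are switched on in neurons within minutes of firing or growth factor signalling, without new protein synthesis, and many encode transcription factors that then act on later genes. Circular RNA has no poly(A) tail, so these libraries report on messages and not on the circle itself.

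The microRNAs known to bind Cdr1as are shown for their seeds, while the miR-7 targets counted further on come from a list of reported targets and not from a search for seed matches. RefSeq places miR-7a-5p at chr7:78888295-78888317 (+) and chr13:58392841-58392863 (-), miR-7b-5p at chr17:56243017-56243040 (+) and miR-671-5p at chr5:24592132-24592154 (+), all on GRCm38.p6. The seed is in capitals, and both miR-7 forms share it, while that of miR-671-5p differs.
mmu-miR-7a-5p: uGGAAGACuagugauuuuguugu
mmu-miR-7b-5p: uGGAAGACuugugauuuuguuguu
mmu-miR-671-5p: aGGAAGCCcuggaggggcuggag

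Gene counts per cortex library were 36.3, 27.8 and 30.5 M in knockouts 1, 2 and 3 and 21.1, 28.5 and 34.6 M in wild types 1, 2 and 3, so wild type 1 was the shallowest. A few markers were set against the cortex label. Slc17a7, the vesicular glutamate transporter of cortical excitatory neurons, lay between 1129 and 1495 CPM (counts scaled to 1000000 gene counts per library), whereas the cerebellar markers Gabra6 and Pcp2 stayed at or under 0.169 CPM in the 6 libraries. Car8, another cerebellar marker, had 10.8 to 15.3 CPM there, against 1709 CPM in wild-type cerebellum. Gabra6 and Pcp2 also averaged at most 0.0321 CPM in wild-type hippocampus, so they do not tell cortex from hippocampus. Libraries numbered 2 stood apart in both genotypes. The surface receptor gene Bmpr2 had 4.55 CPM in knockout 2 and 3.59 CPM in wild type 2, against 68.0 to 73.2 CPM in the other 4 libraries. Of 14138 genes with at least 1 CPM, 59 were lower and 83 higher by more than 1 on the log2 scale in both libraries numbered 2. Of the 30 lowest, 28 were also lower by more than 1 in the libraries numbered 2 of both genotypes in each other region. The labels name no batch. This set holds 1 knockout and 1 wild type cortex library, so the locus and the called genes are also given without them and with a batch term for them.

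The targeted locus was low in the knockout libraries. Cdr1asG, the authors' own feature for the locus, had 5, 13 and 10 counts in knockouts 1, 2 and 3 against 104, 107 and 353 counts in wild types 1, 2 and 3. These counts equal 0.141, 0.458 and 0.333 CPM in knockout cortex and 5.09, 3.66 and 9.97 CPM in wild-type cortex. Every knockout library lay below every wild-type one, with a log2 knockout minus wild type (log2, where 1 is a 2-fold difference) of -4.36 (SE 0.53). It did not pass the test over all genes (edgeR adjusted p = 0.0844), and with the batch term for libraries numbered 2 it passed (adjusted p = 0.0294). Without both libraries numbered 2 it did not pass (log2 -5.02, adjusted p = 0.0612), and between knockout 2 and wild type 2 alone the log2 was -2.97, with no test. Cdr1, annotated at the same place, had 0 counts in all 6 libraries. C230004F18Rik, a long noncoding RNA that overlaps the locus, had 19.1, 16.8 and 21.9 CPM in knockouts against 7.05, 8.86 and 9.80 CPM in wild types, a log2 of 1.16 (SE 0.16, adjusted p = 0.0726). Its groups did not overlap either, in the other direction. Whether the counting used the strand of the reads is not given in the sources used here, so reads of these overlapping features cannot be told apart.

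In the cortex 6 genes rose in the knockout and none fell, of 15834 tested (0.0379%; edgeR quasi-likelihood F test, Benjamini-Hochberg adjusted p under 0.05). All 6 are genes that neurons or growth-stimulated cells induce quickly. They are the transcription factors Egr1, Egr4 and Nr4a2, the EGR corepressor Nab2, the kinase Sik1 and the clock repressor Per1. At an unadjusted p under 0.05 there were 665 genes (4.2%), 385 higher (2.43%) and 280 lower (1.77%). DESeq2 called 77 higher (0.486%) and 25 lower (0.158%) on the same counts, all 6 among them. These are the shares to set beside the DESeq2 calls given for lists further on. The median log2 of all genes tested was -0.01. With unnamed predicted genes left out, 12 rises were listed by smallest p, at 1 CPM or more and with groups that did not overlap. They were the 6 called genes, Ier5, Midn, Klf10, Dnajb5, Klf4 and Rara. Dnajb5, on neither immediate-early list, had 220, 239 and 249 CPM in knockouts and 163, 151 and 142 CPM in wild types (log2 0.63, SE 0.09, edgeR adjusted p = 0.0844).

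Per1, a repressor in the circadian feedback loop that is also a quick response gene, had 163, 159 and 179 CPM in knockouts 1, 2 and 3 against 81.4, 91.1 and 85.0 CPM in wild types 1, 2 and 3. The 2 groups lay far apart for their spread, with a log2 of 0.96 (SE 0.09, adjusted p = 0.0262). Egr1, a zinc finger factor induced by synaptic activity and widely used as its marker, had 446, 412 and 574 CPM in knockout cortex and 210, 214 and 215 CPM in wild-type cortex. Knockout 3 was the highest library, the wild-type libraries were almost level, and the groups did not overlap (log2 1.16, SE 0.12, adjusted p = 0.0391). Egr4, a relative of Egr1 that binds the same kind of GC-rich site, had 36.8, 37.1 and 46.3 CPM in knockouts and 17.9, 16.3 and 20.1 CPM in wild types (log2 1.15, SE 0.13, adjusted p = 0.0398). Nab2 encodes a corepressor that binds EGR proteins and is itself induced by them, closing a feedback loop. It had 58.3, 50.9 and 53.7 CPM in knockouts and 30.5, 32.6 and 32.4 CPM in wild types (log2 0.77, SE 0.09, adjusted p = 0.0451). Sik1, a salt-inducible kinase that holds CREB coactivators in the cytoplasm, had 31.2, 37.8 and 41.2 CPM in knockouts and 11.9, 13.9 and 16.4 CPM in wild types. This was the largest log2 of the 6, at 1.38 (SE 0.15, adjusted p = 0.0391). Nr4a2, an orphan nuclear receptor that is both activity-induced and a marker of deep cortical layers and claustrum, had 73.3, 64.9 and 70.2 CPM in knockouts and 40.4, 43.0 and 41.0 CPM in wild types (log2 0.74, SE 0.09, adjusted p = 0.0410).

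The calls lay close to the threshold and depended on the set of libraries. No gene was called without knockout 1, without knockout 2, without knockout 3 or without wild type 3. Without wild type 1, 4 genes were called, all higher, with 2 of the 6 among them. Without wild type 2, 3 were called, 1 higher and 2 lower, with 1 of the 6 among them. Without both libraries numbered 2, 4 genes were called, 2 higher and 2 lower, with Per1 (log2 1.04, adjusted p = 0.0238) and Egr1 (1.27, adjusted p = 0.0491) among them. The others of the 6 did not pass there, with a log2 of 1.35 for Sik1 (adjusted p = 0.194), 1.13 for Egr4 (0.0832), 0.82 for Nr4a2 (0.0611) and 0.83 for Nab2 (0.0832). With the batch term, 56 genes were higher and 20 lower, and all 6 passed, Per1 at an adjusted p of 0.00128. Between knockout 2 and wild type 2 alone, with no test, the log2 was 0.81 for Per1, 0.95 for Egr1, 1.44 for Sik1, 1.19 for Egr4, 0.59 for Nr4a2 and 0.64 for Nab2.

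**Figure D1:**
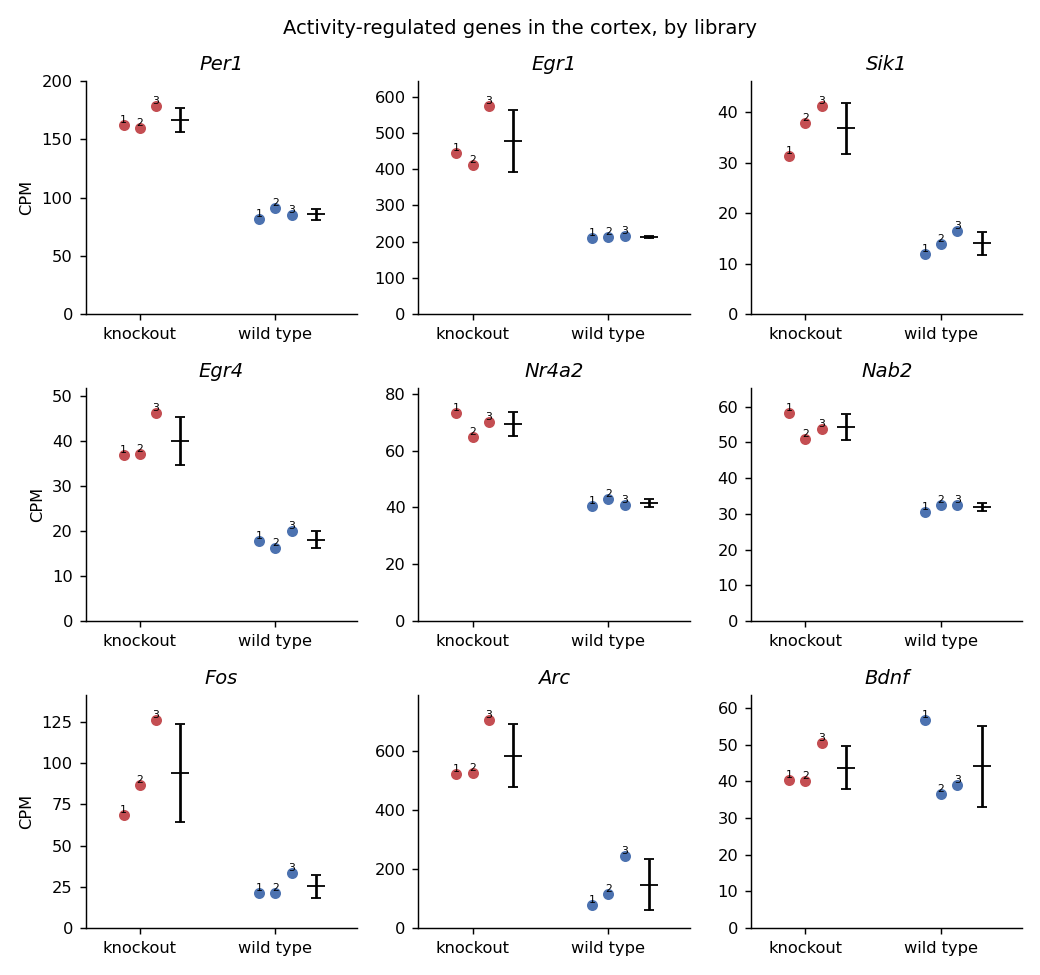
Level in CPM (linear axis from 0) of the 6 genes that rose in knockout cortex and of Fos, Arc and Bdnf, with 1 point per library, numbered 1 to 3, and a bar for the mean ± SD of 3 libraries. The points of knockout and wild type do not overlap for the first 8 genes, and they overlap for Bdnf, where wild type 1 was highest at 56.8 CPM.

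Promoter sequence was looked up for the called genes because several are textbook targets of the factor CREB, and Per1, Egr4, Nr4a2 and Nab2, 4 of the 6 genes, were matched by symbol to 5 start windows of RefSeq, each from 250 bases before to 50 after a start. The motif searched first was TGACG, the core of the cyclic AMP response element, on either strand, which 20.8% of all 32851 windows of this length hold. It was in 4 of the 5 windows, at 1 place in each Per1 window, 2 in Egr4 and 4 in Nr4a2, and not in that of Nab2. The full element TGACGTCA, which contains the core on both strands, is in 1.79% of all windows and in none of the 5, and the EGR site GCGTGGGCG (0.612% of all windows) and the serum response element (1.63%) were in none of them. The E-box CACGTG (7.15% of all windows) was in the upstream Per1 window. The lookup for the called genes left out windows of 1 chromosome, and the shares over all windows were counted without that exclusion. No window of Egr1 or Sik1 was searched, so the motif counts do not cover these genes. The same holds for the motifs reported as absent, the serum response element among them. A match describes letters and does not show binding. The windows that hold the core are shown 5′ to 3′ on the strand of the gene, with TGACG or its reverse complement in capitals: Per1 at chr11:69098699-69098998 (+) and chr11:69099902-69100201 (+), Egr4 at chr6:85513540-85513839 (-) and Nr4a2 at chr2:57123954-57124253 (-), on GRCm38.p6.
Per1, upstream start: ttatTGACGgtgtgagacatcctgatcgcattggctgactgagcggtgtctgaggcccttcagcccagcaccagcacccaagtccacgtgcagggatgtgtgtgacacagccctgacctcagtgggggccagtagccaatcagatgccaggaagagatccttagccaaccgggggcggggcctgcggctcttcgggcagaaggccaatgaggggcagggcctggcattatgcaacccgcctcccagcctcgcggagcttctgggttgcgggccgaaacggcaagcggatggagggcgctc
Per1, downstream start: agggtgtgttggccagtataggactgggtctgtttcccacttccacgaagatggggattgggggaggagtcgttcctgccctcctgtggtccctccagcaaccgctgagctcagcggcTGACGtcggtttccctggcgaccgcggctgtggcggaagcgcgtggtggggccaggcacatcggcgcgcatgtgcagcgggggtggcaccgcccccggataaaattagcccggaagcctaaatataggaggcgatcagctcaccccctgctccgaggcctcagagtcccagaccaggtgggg
Egr4: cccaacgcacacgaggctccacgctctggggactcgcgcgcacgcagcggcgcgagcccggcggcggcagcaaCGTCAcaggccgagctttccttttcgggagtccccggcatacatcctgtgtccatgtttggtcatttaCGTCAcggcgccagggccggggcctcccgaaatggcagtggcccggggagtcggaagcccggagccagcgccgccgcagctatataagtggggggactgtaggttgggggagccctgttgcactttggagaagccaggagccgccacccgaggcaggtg
Nr4a2: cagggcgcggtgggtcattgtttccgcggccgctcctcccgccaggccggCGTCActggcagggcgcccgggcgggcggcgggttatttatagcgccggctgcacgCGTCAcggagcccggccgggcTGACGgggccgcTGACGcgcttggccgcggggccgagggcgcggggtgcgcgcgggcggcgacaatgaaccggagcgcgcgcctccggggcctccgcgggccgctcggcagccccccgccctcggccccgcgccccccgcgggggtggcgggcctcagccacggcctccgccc

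The 6 genes stood at the head of a wider group. Among 31 immediate-early transcription factors tested, 3 rose (Egr1, Egr4, Nr4a2) and none fell. Log2 was above 0 for 29, against 48.1% of all genes, and every knockout library lay above every wild-type one for 24, against 4.76% of all genes. The median log2 of the list was 0.80, beside -0.01 for all genes. Over both immediate-early lists, log2 was above 0 for 52 of 61 genes, and for 50 to 54 when 1 library or both numbered 2 were left out. DESeq2 called 28 of the 61 higher, against 0.486% of all genes. The list was drawn up with earlier results of these data known, so these counts describe it and test nothing.

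Fos, the AP-1 subunit most used as a marker of recent neuronal activity, had 68.5, 87.0 and 126 CPM in knockouts against 21.3, 21.1 and 33.5 CPM in wild types. Its log2 was 1.89 (SE 0.29), yet the adjusted p was 0.192, since the libraries varied widely within a group. Fosb, its relative, had 42.7, 47.4 and 64.4 CPM in knockouts and 31.9, 18.8 and 18.8 CPM in wild types, and Junb, a partner of both in the AP-1 dimer, had 74.7, 85.5 and 111 CPM in knockouts and 23.0, 35.0 and 48.8 CPM in wild types. Neither passed (log2 1.16 and 1.34), and in both every knockout library was above every wild-type one.

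Egr2 had the largest log2 of the transcription factors, 1.94, with 24.3, 31.7 and 38.6 CPM in knockouts and 9.05, 5.44 and 10.1 CPM in wild types (adjusted p = 0.153). Egr3 differed from the rest of its family. It had 101, 106 and 125 CPM in knockouts and 126, 84.3 and 76.7 CPM in wild types, with wild type 1 level with the highest knockout (log2 0.21). The nuclear receptors Nr4a1 (log2 1.24) and Nr4a3 (1.37) had groups that did not overlap and did not pass. Npas4, a factor that responds to calcium entry in neurons with little response to other stimuli, had 34.9, 74.0 and 71.9 CPM in knockouts and 9.74, 34.4 and 18.3 CPM in wild types. Knockout 1 and wild type 2 almost met, and its SE was large (log2 1.53, SE 0.55). Ier5, an immediate-early gene induced by growth factors and activity, was closest to the threshold outside the called genes, with 112, 108 and 112 CPM in knockouts and 72.5, 69.6 and 75.0 CPM in wild types (log2 0.61, SE 0.08, adjusted p = 0.0515).

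Klf10 and Klf4, Kruppel-like factors that restrain growth, had log2 of 0.95 and 1.24 with groups that did not overlap (adjusted p = 0.0726 and 0.125). Klf6 was the exception within the family, with 53.6, 53.3 and 58.6 CPM in knockouts and 60.9, 69.5 and 59.0 CPM in wild types, every knockout library lower (log2 -0.20, adjusted p = 0.9998). The serum response factor Srf itself had 70.4, 68.6 and 67.8 CPM in knockouts against 56.4, 51.4 and 51.6 CPM in wild types (log2 0.38, adjusted p = 0.309). Crem and Myc, which are also induced by activity or growth factors, overlapped, with log2 of -0.10 and 0.04.

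Among 30 immediate-early signalling and effector genes, 2 rose (Sik1 and Nab2) and none fell. Log2 was above 0 for 23, against 48.1% of all genes, and every knockout library was higher for 15, against 4.76% of all genes. The median log2, 0.32, was lower than that of the transcription factors. Arc, a synaptic protein that moves to active dendrites and removes glutamate receptors, had the largest log2 of all members, with 521, 527 and 707 CPM in knockouts against 79.0, 116 and 245 CPM in wild types. The wild-type libraries spread widely, with wild type 3 highest, and the difference did not pass (log2 1.99, SE 0.46, adjusted p = 0.636).

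Midn, which carries proteins to the proteasome, had 84.0, 83.3 and 92.0 CPM in knockouts and 56.4, 51.3 and 46.3 CPM in wild types (log2 0.75, adjusted p = 0.0606). Dusp1, the phosphatase that switches off MAP kinases, had 41.0, 53.9 and 50.001 CPM in knockouts and 12.8, 22.1 and 34.7 CPM in wild types, where wild type 3 was highest (log2 1.05, adjusted p = 0.995). Members that did not separate include Homer1, a synaptic scaffold with an activity-induced short form, which had 378, 386 and 472 CPM in knockouts and 465, 283 and 344 CPM in wild types. Ppp1r15a, a stress-response phosphatase subunit, had 14.6, 14.8 and 13.4 CPM in knockouts and 13.8, 14.5 and 12.8 CPM in wild types, close to equal (log2 0.06).

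Late-response genes, which need new protein and follow the early wave by hours, gave no call in edgeR and 1, Gpr3, by DESeq2. Of 30 tested, log2 was above 0 for 9 and below 0 for 21, and the median was -0.07. Bdnf, the growth factor most studied as a late target, had 40.4, 40.2 and 50.5 CPM in knockouts and 56.8, 36.5 and 38.9 CPM in wild types (log2 -0.01). Nptx2, a secreted protein that gathers AMPA receptors, had 83.7, 85.6 and 107 CPM in knockouts and 136, 92.1 and 93.3 CPM in wild types, so 3 of 3 wild-type libraries exceeded 2 of 3 knockout ones. Gpr3, a receptor that raises cyclic AMP without ligand, had the smallest p of the list, with 11.2, 12.5 and 11.9 CPM in knockouts and 7.83, 6.40 and 7.06 CPM in wild types (log2 0.74, SE 0.13, adjusted p = 0.161). The difference between early and late genes was not tested as such.

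Feedback genes of the MAP kinase pathway gave no call in edgeR and 1, Dusp5, by DESeq2 (adjusted p = 0.0022). Of 14 tested, log2 was above 0 for 13, against 48.1% of all genes, every knockout library was higher for 5, against 4.76%, and the median was 0.18. Dusp5, a nuclear phosphatase of ERK, had 19.8, 19.8 and 23.3 CPM in knockouts and 10.5, 6.88 and 13.4 CPM in wild types (log2 1.03, adjusted p = 0.360). Dusp6, its cytoplasmic counterpart, had 87.3, 91.3 and 111 CPM in knockouts and 60.9, 64.6 and 79.3 CPM in wild types (log2 0.50, adjusted p = 0.488). Spry4, an inhibitor of receptor signalling to Ras, had a log2 of 0.44 and Errfi1, an inhibitor of the EGF receptor, 0.37, both with groups apart.

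The pathways that drive immediate-early genes differed little in their own messages. Of 29 genes of the CREB pathway only Sik1 passed in edgeR (DESeq2 called 2, with Sik2), 14 had a log2 above 0, and the median was 0.00. Its relative Sik2 had 62.7, 64.8 and 64.6 CPM in knockouts and 52.0, 42.3 and 39.3 CPM in wild types (log2 0.53, SE 0.11, adjusted p = 0.296). Of 21 genes of the SRF and Elk pathway none passed in edgeR and 1, Srf, by DESeq2, and the median was 0.05. Srf was the member with the smallest p.

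Among 24 clock genes, Per1 was the one called in edgeR (DESeq2 called 4), with 12 log2 values above 0 and a median of 0.00. Bhlhe40, a repressor of the clock loop that also responds to activity, had 190, 149 and 189 CPM in knockouts against 124, 93.2 and 99.1 CPM in wild types (log2 0.74, SE 0.14, adjusted p = 0.177). Dbp, a rhythmic activator, lay the other way, with 55.5, 54.4 and 51.1 CPM in knockouts and 64.6, 92.9 and 77.0 CPM in wild types (log2 -0.54, adjusted p = 0.370). Per2, the paralog of Per1, had 51.0, 60.5 and 59.5 CPM in knockouts and 49.7, 50.9 and 34.3 CPM in wild types (log2 0.34), with little room between the groups. The time of day at which tissue was taken is not in the labels. Of 16 glucocorticoid response genes Per1 was again the only one called in edgeR, and DESeq2 called 3, with Dusp1 and Pdk4. Pdk4, a brake on glucose oxidation, had a log2 of 0.59, and the metallothionein Mt2 one of -0.48. Log2 was above 0 for 11 of the 16, against 48.1% of all genes, and the median was 0.07. Every knockout library was higher for 4 and lower for 2, where each of these held for 4.76% of all genes.

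None of 30 reported miR-7 targets passed in edgeR, while DESeq2 called 2, Klf4 (adjusted p = 1.14e-05) and Irs2 (adjusted p = 0.00299). Log2 was above 0 for 18, against 48.1% of all genes, and the median was 0.06, against -0.01. Every knockout library was higher for 5 and lower for 1, where each of these held for 4.76% of all genes. Klf4, also an immediate-early gene, had the smallest p of the list, with 10.5, 14.4 and 16.6 CPM in knockouts and 5.14, 6.47 and 5.90 CPM in wild types (log2 1.24, SE 0.19). Irs2, an adaptor of the insulin receptor, had 68.9, 55.5 and 75.5 CPM in knockouts and 49.0, 32.4 and 34.7 CPM in wild types (log2 0.79, adjusted p = 0.387). Mknk2, a kinase of the translation factor eIF4E, followed with a log2 of 0.34 (adjusted p = 0.654). Pax6, a developmental factor repressed by miR-7 in mouse forebrain progenitors, had 7.64, 7.68 and 7.88 CPM in knockouts and 10.6, 10.3 and 8.58 CPM in wild types, lower in every knockout library (log2 -0.34). Pax6 is also expressed in olfactory bulb interneurons, whose markers are given further on.

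Of 18 genes of the Cdr1as network and the microRNA machinery, none passed in edgeR, and DESeq2 called 2, Cdr1asG and C230004F18Rik. Ago1, an Argonaute protein that holds mature microRNAs, had 113, 108 and 107 CPM in knockouts and 95.2, 98.6 and 93.9 CPM in wild types, apart but close (log2 0.19, SE 0.08), and Ago2 overlapped (log2 0.03).

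Synaptic receptor genes differed little. Of 30 genes for glutamate receptors and their scaffold none passed and none had groups that did not overlap, with log2 from -0.13 to 0.23 and a median of 0.02. Of 19 genes of GABA signalling none passed, and the median was -0.06. Gphn, the scaffold of inhibitory synapses, was the one with groups apart, at 78.9, 80.5 and 79.9 CPM in knockouts and 83.9, 82.7 and 84.9 CPM in wild types (log2 -0.07).

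**Figure D2:**
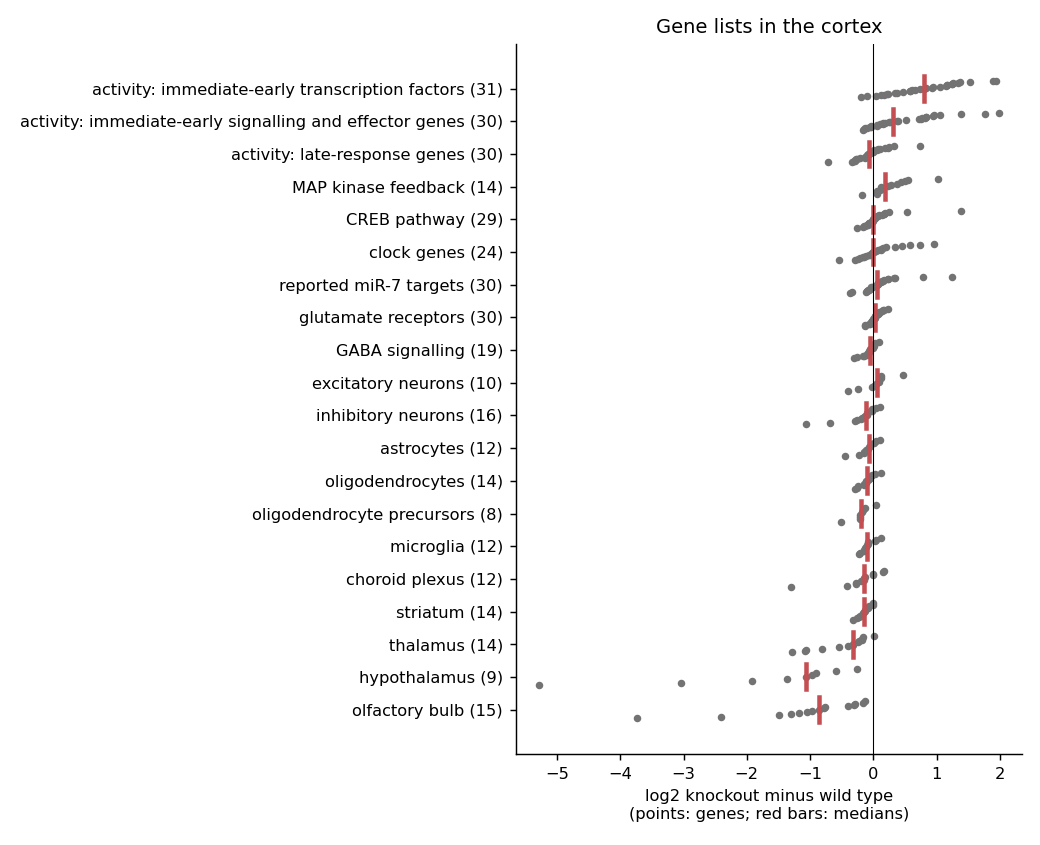
Log2 knockout minus wild type in the cortex for the members of 20 gene lists, with 1 point per gene tested, the number of genes in brackets and the median as a red bar. The immediate-early transcription factors have the highest median of these lists, 0.80, and the olfactory bulb and hypothalamus markers have medians of -0.86 and -1.06.

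Genes lower in the knockout did not pass in the main edgeR fit of the cortex libraries, while DESeq2 called 25, among them all those listed next except Tnfsf10 (adjusted p = 0.0558). The 12 with the smallest p at 1 CPM or more and groups apart were Cdr1asG, Xlr3a, Apcdd1, Frmd7, Pdzd2, Heyl, Eomes, Sp8, Ddit4l, Zc3h6, Cdc42ep1 and Tnfsf10. Apcdd1, an inhibitor of Wnt signalling, had 21.3, 18.9 and 19.4 CPM in knockouts and 31.9, 28.7 and 30.01 CPM in wild types, with both groups tight (log2 -0.60, SE 0.10, adjusted p = 0.160). Heyl, a target of Notch, had 5.36, 5.08 and 5.49 CPM in knockouts and 9.25, 9.34 and 8.36 CPM in wild types (log2 -0.76, SE 0.13, adjusted p = 0.161). Both groups were again narrow. Tnfsf10, the death ligand TRAIL, had 2.11, 1.76 and 1.53 CPM in knockouts and 3.03, 3.97 and 4.15 CPM in wild types (log2 -1.05, SE 0.22, adjusted p = 0.264). In the fit of all 24 libraries its log2 in the cortex was -1.04, near the values for cerebellum (-0.90), hippocampus (-0.79) and bulb (-0.71). Zc3h6, a zinc finger gene, likewise had a log2 of -0.65 for cortex, -0.50 for cerebellum, -0.40 for hippocampus and -0.52 for bulb.

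Xlr3a, an X-linked gene with near-identical copies, had 0.592, 0.705 and 0.266 CPM in knockouts and 1.96, 2.33 and 2.65 CPM in wild types, and reads of its copies may have been split. Pdzd2, a scaffold with several PDZ domains which is on the list of hippocampus markers although wild-type cortex averaged more (173 CPM) than wild-type hippocampus (91.9 CPM), had 107, 104 and 119 CPM in knockouts and 153, 188 and 156 CPM in wild types (log2 -0.59). Ddit4l, an inhibitor of mTOR signalling, and Cdc42ep1, an effector of the small GTPase Cdc42, had log2 of -0.56 each. Frmd7, Eomes and Sp8 mark the olfactory bulb and are described with its tracers.

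**Figure D3:**
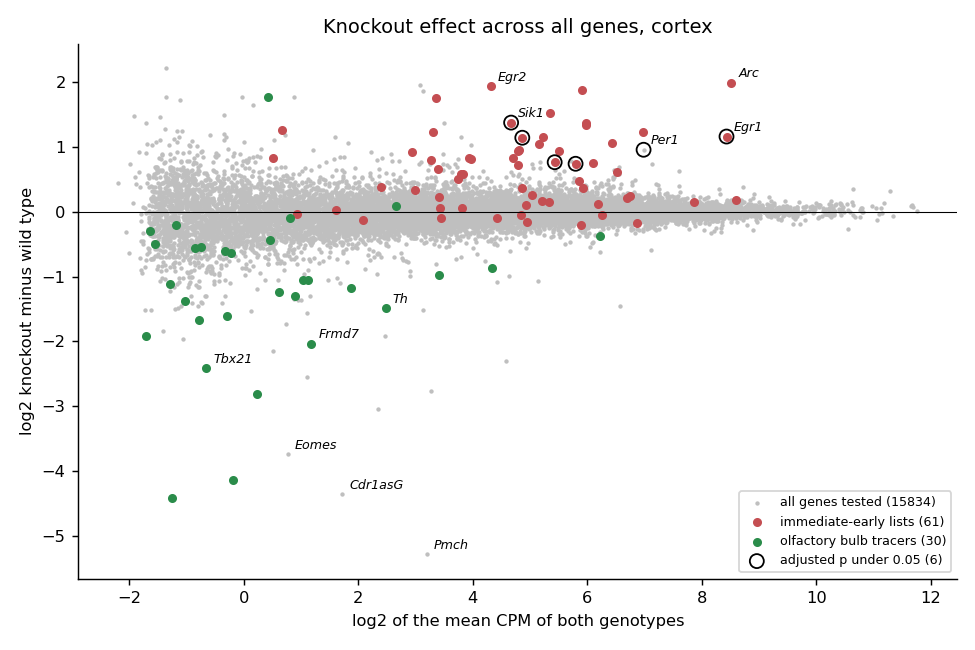
Log2 knockout minus wild type against log2 of the mean CPM of both genotypes, for 15834 genes tested in the cortex. The 6 genes with an adjusted p under 0.05 (circles) lie above 0, as do most of the 61 genes of the immediate-early lists (red), while 28 of the 30 olfactory bulb tracers tested (green) lie below 0.

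Transcripts of the olfactory bulb, which touches the frontal cortex, had lower levels in the knockout cortex as a group. No single one passed in the main edgeR fit of the cortex libraries. Tracers were defined without the cortex libraries, as genes with at least 10 CPM in wild-type bulb and at least 20 times their level in wild-type hippocampus and in wild-type cerebellum. Of 32 such genes 30 were tested in the cortex and none passed (main edgeR fit). Log2 was below 0 for 28, against 8224 of all 15834 genes tested. Every knockout library was lower for 19 (4.76% of all genes were so), and the median was -1.05. DESeq2 called 8 of them lower, beside 25 of all 15834 genes (0.158%). With all 24 libraries in one fit, edgeR called 9 tracers lower, beside 17 of all 17266 genes (0.0985%). It called 6 with the replicate number as a block, 5 with the batch term and 3 with no filter on low counts. Over all genes these fits called 22, 20 and 5 lower. The remaining alternatives called none. The median level of the 32 tracers was 1.68, 1.87 and 1.49% of the wild-type bulb level in knockouts 1, 2 and 3 and 3.73, 3.30 and 2.90% in wild types 1, 2 and 3. The groups did not overlap, and the summed level ran the same way, at 113, 114 and 114 CPM in knockouts against 225, 145 and 157 CPM in wild types. Wild type 1 was the highest. A single tracer, Gng4, held a large part of this sum, with 65.0, 62.9 and 67.6 CPM in knockouts and 108, 65.8 and 78.2 CPM in wild types. In bulk tissue, fewer cells of a type and less RNA per cell cannot be told apart.

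Th, the enzyme that starts dopamine synthesis and is made by bulb periglomerular cells, had 3.61, 3.14 and 1.93 CPM in knockout cortex and 11.99, 5.92 and 6.69 CPM in wild-type cortex, beside 202 CPM in wild-type bulb. Cdhr1, a cadherin of mitral and tufted cells, had 14.4, 13.0 and 15.5 CPM in knockouts and 37.1, 21.0 and 19.9 CPM in wild types. Frmd7 had 0.479, 1.13 and 1.03 CPM in knockouts and 4.6, 3.70 and 2.51 CPM in wild types, and Sp8, a factor of bulb interneurons, had 1.86, 2.57 and 2.3 CPM in knockouts and 6.41, 4.38 and 4.46 CPM in wild types. None of these overlapped. Omp and S100a5, which mark olfactory sensory neurons, were at most 0.499 and 0.0998 CPM in knockouts and at least 0.787 and 0.479 CPM in wild types. Groups overlapped for 11 of the 30 tracers tested. Among them was Gng4, the most abundant tracer in the cortex, with 65.0, 62.9 and 67.6 CPM in knockouts and 108, 65.8 and 78.2 CPM in wild types. Slc6a3, the dopamine transporter, was another, high in knockout 1 alone, at 5.64 CPM. Some tracers qualified on variable wild-type bulb libraries, as Gpx6 did (13.1 ± 21.3 CPM, SD).

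A second list, of 15 bulb markers from general knowledge, had all 15 log2 values below 0 and a median of -0.86. Every knockout library was lower for 9, against 4.76% of all genes. None passed in the main edgeR fit, and DESeq2 called 5. Some of its genes are also tracers, and 1 of the 15, Ppp1r17, was a tracer of cerebellum in these libraries, at 212 CPM in wild-type cerebellum and 4.63 CPM in wild-type bulb. Eomes, a T-box factor of mitral and tufted cells and of newborn neurons, had 0.113, 0.494 and 0.0998 CPM in knockouts and 5.14, 2.12 and 2.15 CPM in wild types (log2 -3.74, SE 0.64, adjusted p = 0.177). Tbx21, its partner in the same cells, had 0.169, 0.282 and 0.133 CPM in knockouts and 1.32, 0.856 and 0.988 CPM in wild types (log2 -2.41, adjusted p = 0.160). Calb2, calretinin, a marker of inhibitory neurons of cortex, bulb and thalamus, had 22.9, 20.9 and 24.3 CPM in knockouts and 73.9, 26.8 and 42.0 CPM in wild types (log2 -1.06).

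The part of bulb tissue in other results was checked only where the values bear on it. With the summed bulb tracer level as a covariate, no gene was called, and the log2 was 0.84 for Per1, 1.15 for Egr1, 1.08 for Sik1, 1.19 for Egr4, 0.68 for Nr4a2 and 0.68 for Nab2. The median of the 61 immediate-early genes was then 0.56, against 0.61 without it. With all tracers left out of the genes tested, the same 6 genes were called. Tracer level and genotype run together in these 6 libraries, so the 2 cannot be told apart by this fit. The summed level also rests in large part on Gng4, whose groups overlapped, so the covariate does not weigh the tracers evenly.

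**Figure D4:**
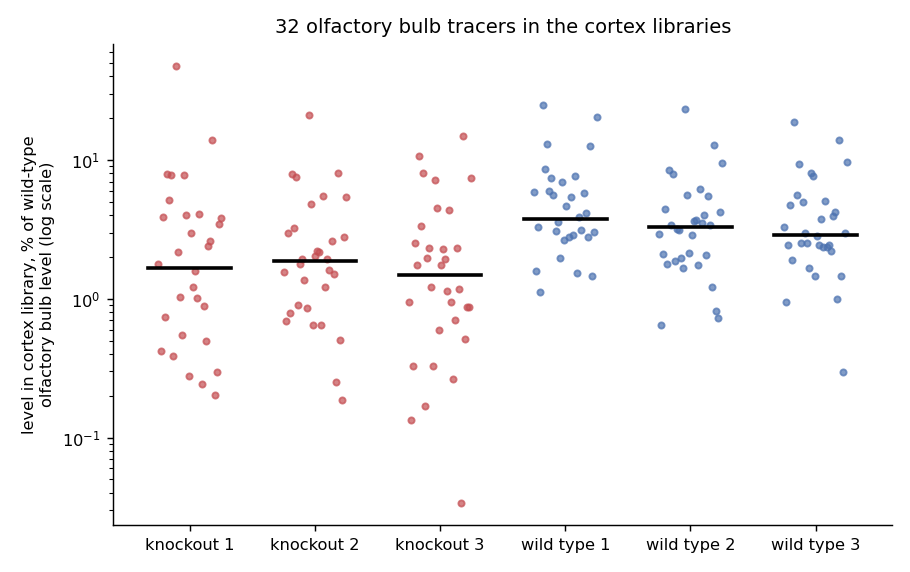
Level of 32 olfactory bulb tracers in each cortex library as a percent of their mean in wild-type bulb (log axis; values of 0 are not drawn, at most 2 in a library), with 1 point per gene and the median as a black bar. The medians of the 3 knockout libraries, 1.49 to 1.87%, lie below those of the 3 wild-type libraries, 2.90 to 3.73%.

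Markers of other neighbours varied by library. Of 9 hypothalamus markers tested, all had a log2 below 0 and none passed in edgeR (median -1.06; DESeq2 called 1, Pmch), and 2 wild-type libraries carried most of their level. Pmch, the hormone of lateral hypothalamic neurons, had 0.282, 0.564 and 0.532 CPM in knockouts 1, 2 and 3 and 24.03, 0.650 and 28.8 CPM in wild types 1, 2 and 3. Hcrt, orexin, followed it, with at most 0.113 CPM in knockouts and 6.07, 0.0684 and 6.58 CPM in wild types. Wild type 2 was thus level with the knockouts, while wild types 1 and 3 held such transcripts. Summed over 12 markers, the level was 11.95, 15.7 and 22.5 CPM in knockouts and 95.2, 17.6 and 80.6 CPM in wild types.

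Thalamus markers had a median log2 of -0.32 over 14 genes, none passing in edgeR and 1, Calb2, by DESeq2, and wild type 3 stood highest. Prkcd, a kinase of thalamic relay neurons, had 10.9, 15.8 and 14.5 CPM in knockouts and 20.1, 17.5 and 49.2 CPM in wild types. All 14 striatum markers tested had a log2 below 0, from -0.32 to -0.01 with a median of -0.15, and none passed or had groups that did not overlap. Adora2a, the adenosine receptor of indirect-pathway neurons, had 51.2, 54.8 and 27.6 CPM in knockouts and 29.4, 58.4 and 61.4 CPM in wild types, low in knockout 3 and wild type 1. Ttr, transthyretin, made by choroid plexus, had 154, 9.66 and 294 CPM in knockouts and 339, 118 and 4.09 CPM in wild types, so it was low in knockout 2 and wild type 3 and had no order by genotype. Of 31 hippocampus tracers none passed, and their summed level was 57.1, 51.6 and 56.6% of the hippocampal level in knockouts and 57.8, 51.5 and 51.4% in wild types. Several have similar levels in both tissues. Enc1 had 1045 CPM in wild-type cortex and 1146 CPM in wild-type hippocampus, and Sst had 159 and 148 CPM. The summed share therefore does not measure hippocampal tissue in the dissection. Dsp, with little cortex level, lay between 0.435 and 1.66% over the cortex libraries. Cerebellar tracers summed to 0.887 to 1.08% of the cerebellar level in knockouts and 0.947 to 1.09% in wild types. Their medians were 0.04 over 31 genes tested and -0.18 over 25.

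Cell-type markers within the cortex gave a single call in edgeR. Markers of layers 2/3 and 4 (12 genes), layer 5 (9) and layer 6 (12) had medians of 0.03, 0.10 and 0.02, with Nr4a2 the one gene called. Neurod2, a factor of maturing and adult excitatory neurons, had 63.4, 65.6 and 59.1 CPM in knockouts and 42.9, 48.5 and 44.8 CPM in wild types (log2 0.47, SE 0.09, adjusted p = 0.188), while Slc17a7 and Camk2a had log2 of 0.13 and 0.09. Of the 10 excitatory neuron markers log2 was above 0 for 7 and below 0 for 3. Every knockout library was higher for 1 and lower for 1, where each of these held for 4.76% of all genes. The median was 0.06, with none passing in edgeR and 1, Neurod2, by DESeq2. Slc17a6, a vesicular glutamate transporter, had the lowest log2 of the list, -0.39, with groups that overlapped. Of 16 inhibitory neuron markers log2 was below 0 for 14, and every knockout library was lower for 5, against 4.76% of all genes. The median was -0.12, and none passed in edgeR while DESeq2 called 1, Calb2. Gad2, an enzyme that makes GABA, had 236, 280 and 281 CPM in knockouts and 341, 291 and 344 CPM in wild types (log2 -0.29). Several of these genes are expressed in olfactory bulb interneurons as well, and the part of the lower bulb level in their values was not tested.

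Astrocyte (12 genes), oligodendrocyte (14), microglia (12) and endothelial and pericyte (14) markers had medians of -0.07, -0.10, -0.10 and 0.07, and none passed. Olig2, a factor of the oligodendrocyte lineage, had 18.9, 15.4 and 18.6 CPM in knockouts and 28.0, 20.9 and 26.4 CPM in wild types (log2 -0.51, adjusted p = 0.531). Over 8 markers of oligodendrocyte precursors the median was -0.19, with 7 below 0. No gene passed among the markers of choroid plexus (12 genes), ependyma (8), meningeal fibroblasts (10) or erythrocytes (5), with medians of -0.14, -0.18, -0.13 and 0.14, nor among the heat shock (14) and interferon (15) genes, with medians of 0.01 and -0.10. Of 10 markers of claustrum and amygdala only Nr4a2 passed. Zic1, a factor of cerebellar granule cells that is also found in meninges and septum, had 11.8, 16.9 and 21.1 CPM in knockouts and 39.6, 26.01 and 32.9 CPM in wild types (log2 -0.98, adjusted p = 0.488).

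The cortex effect was then set against the mean effect of the other 3 regions, in one fit of all 24 libraries. Of 17266 genes tested 1 differed (0.00579%; edgeR quasi-likelihood F test), and 365 had an unadjusted p under 0.05 (2.11%). This gene was Eomes, whose log2 was -3.72 for cortex, 1.41 for cerebellum, 0.33 for hippocampus and -0.11 for bulb, a difference of -4.26 (SE 0.54, adjusted p = 0.00451). It was not called without knockout 1 (adjusted p = 0.0838), without knockout 3 (0.0638) or by limma-voom (0.0849, and 0.0522 with libraries of equal genotype and number correlated). Mean levels of Eomes were 142 ± 16 CPM in knockout bulb and 153 ± 16 CPM in wild-type bulb (SD, n = 3 each), close to each other. In cerebellum, whose log2 of 1.41 also enters the difference, they were 73.6 ± 16 CPM in knockouts and 27.7 ± 4.9 CPM in wild types.

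None of the 6 called genes passed this test (adjusted p = 0.9999 each), which does not show that their effects were equal across regions. Per1 had a log2 of 0.97 for cortex, 0.72 for cerebellum, 0.53 for hippocampus and 0.96 for bulb, so cortex minus the mean of the others was 0.24 (SE 0.19). Sik1 had 1.39 for cortex, 0.73 for cerebellum, 0.75 for hippocampus and 0.81 for bulb. Egr1 had 1.17 for cortex, 0.998 for hippocampus and 1.30 for bulb, but -0.08 (SE 0.32) for cerebellum, and the difference of 0.43 had an SE of 0.36. Nr4a2 had 0.75 for cortex, 1.87 for cerebellum, 0.18 for hippocampus and 1.58 for bulb, and Egr4 had 1.15 for cortex, 0.23 for cerebellum, 1.35 for hippocampus and 1.79 for bulb. Nab2 had 0.78 for cortex, -0.07 for cerebellum, 0.41 for hippocampus and 0.57 for bulb, with a difference of 0.47 (SE 0.16) that did not pass after adjustment.

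Behind Eomes, 6 of the next 7 genes by p at 1 CPM or more shared an adjusted p of 0.0667 or 0.0669. Ier5 had a log2 of 0.62 in the cortex and a mean of -0.02 elsewhere, Bhlhe40 had 0.75 in the cortex and 0.04 elsewhere, and Rara, a retinoic acid receptor, had 0.91 in the cortex and 0.02 elsewhere. On the other side, 1190002N15Rik had -0.45 in the cortex and 0.07 elsewhere, Doc2g, a bulb marker, had -1.04 in the cortex and -0.02 elsewhere, and Frmd7 had -2.02 in the cortex and -0.17 elsewhere. Irf2bpl, a transcriptional regulator, completed the 8 with 0.38 in the cortex and -0.12 elsewhere (adjusted p = 0.124). With a batch term for libraries numbered 2 in each region 7 genes passed, Bhlhe40 (adjusted p = 0.00077), Ier5 (0.0139), Irf2bpl (0.00973) and Eomes (0.0379) among them.

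**Figure D5:**
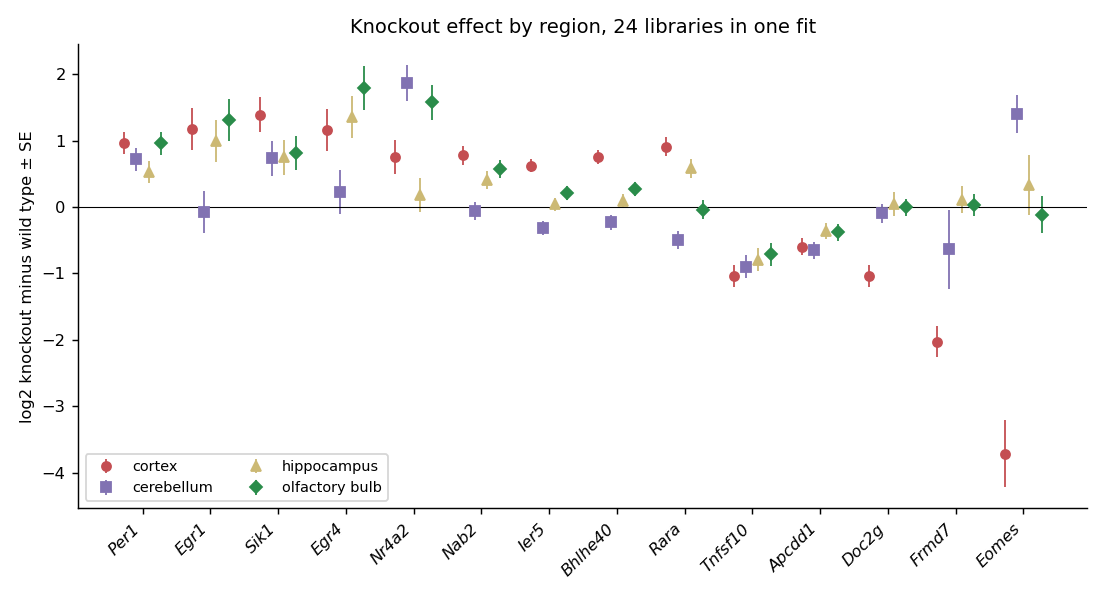
Log2 knockout minus wild type ± SE in 4 regions from one fit of 24 libraries, for the 6 genes called in the cortex, genes with small p in the test of cortex against the other regions, and Tnfsf10 and Apcdd1. Eomes, Frmd7 and Doc2g have their lowest values in the cortex (the difference was called for Eomes), while Per1 and Sik1 lie above 0 in all 4.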

How the data were processed

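Raw read counts per gene, as whole numbers, were deposited by the authors as 1 table per library. Per the submitters' processing notes, bcl2fastq 2.17.1.14, STAR 2.5.1b, HTSeq 0.6.1p1 and mouse assembly mm9 were used, and per the labels' protocols RNA was extracted with TRIzol and libraries were made with a stranded poly(A) kit. The strand setting of the counting is not given in the sources used here. Each table had 37621 features, of which 32897 matched a symbol of a GRCm38 annotation by ID, so no gene coordinates of the counts are printed. In the cortex 8.22 to 15.27% of counts fell in no feature and stayed out of the library sizes.

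Counts of the 6 cortex libraries were filtered (filterByExpr), scaled (TMM, factors 0.970 to 1.02) and tested in edgeR 4.0.16 (R 4.3.3) with robust quasi-likelihood F tests of the genotype, with Benjamini-Hochberg adjustment over all genes. SE is the log2 divided by the root of F. Regions were compared in one fit of 24 libraries. DESeq2 1.42.0 and limma 3.58.1 were alternatives. Counts simulated with known changes were also run through the tests. No share of changes detected is given, so this run does not show how many real changes the tests would find. Libraries of a group differed pairwise by 6.94 to 48.1 chi-square units for each degree of freedom, so none was a copy.

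The members and the 35 gene lists (542 symbols, 535 genes matched) were chosen with earlier results of these data known. Genes are named by a rule: all called genes, the 12 higher and the 12 lower with the smallest p at 1 CPM or more and groups apart (unnamed predicted genes left out), the locus, list members that were called or had the smallest p or highest level, the 8 smallest p between regions, and leading tracers. Other genes named (Egr2, Egr3, Fosb, Junb, Nr4a1, Nr4a3, Npas4, Klf6, Crem, Myc, Arc, Fos, Dusp1, Homer1, Ppp1r15a, Bdnf, Nptx2, Per2, Ago2, Bmpr2) were chosen after their values were seen. Promoter and microRNA sequences are from RefSeq (GRCm38.p6).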

Additional observations from a re-analysis of the deposited data

Results flagged for a closer look

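The knockout effect on Eomes, a T-box factor of mitral and tufted cells of the olfactory bulb, differed between the cortex and the mean of the other 3 regions by -4.26 on the log2 scale (SE 0.54, edgeR adjusted p = 0.00451), which is what singled it out. Every knockout cortex library was below every wild-type one, at 0.0998 to 0.494 CPM in knockout cortex and 2.12 to 5.14 CPM in wild-type cortex. Its wild-type bulb level was 153 ± 16 CPM (SD, n = 3). In cerebellum, which also enters the contrast, it had 73.6 ± 16 CPM in knockouts and 27.7 ± 4.9 CPM in wild types. Eomes is not a tracer by the rule used. The tracer genes of the bulb moved with it in the cortex, with medians of 1.49 to 1.87% of the bulb level in knockout cortex and 2.90 to 3.73% in wild-type cortex. Their part in the result was not tested.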

How the results depend on the processing

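None of the 29 genes recomputed one by one under each alternative changed direction. The 6 cortex calls, all higher, became 0 with library totals in place of TMM, 0 with the bulb tracer level as a covariate, 1 with robust=FALSE, 28 with no filter on low counts (23 higher, 5 lower), 49 with all 24 libraries in one fit (32 higher, 17 lower), 102 by the DESeq2 Wald test (77 higher, 25 lower) and 76 with libraries numbered 2 as a batch term (56 higher, 20 lower), an alternative added after seeing the data. The fit of all 24 libraries kept 3 of the 6. Leaving out 1 library gave 0 to 4. DESeq2 size factors in edgeR gave 7, a mean of at least 1 CPM 8 and limma-voom 6, each with all 6. The 1 gene that differed between cortex and the other regions became 0 by limma-voom, 5 with libraries of equal genotype and number correlated (3 higher, 2 lower, Eomes not among them), 7 with the batch term (5 higher, 2 lower) and 0 to 3 without 1 library. With the replicate number as a block, 110 genes were called in the cortex (88 higher, 22 lower, all 6 among them) and 8 between regions. Same-number correlations of deviations were 0.389, 0.629 and -0.0943, so numbers were not taken as pairs: only numbers 1 and 2 correlated positively, and wild type 1 correlated better with knockout 3 (0.442) than with knockout 1. The cause of these changes was not tested. Over the alternatives the median log2 of the immediate-early genes was 0.51 to 0.72, and that of the bulb tracers -1.23 to -0.81. Wild type 1 had 21.1 M counts, so genes near 1 CPM rest there on few reads, and counting error was not separated from other spread.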

Other observations

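Libraries numbered 2 were low for a set of genes in both genotypes. Lnpep, an aminopeptidase of membrane vesicles, had 3.77 CPM in knockout 2 and 3.18 CPM in wild type 2, against 49.5 to 66.9 CPM in the other 4 cortex libraries. Grin2a and Grin2b, subunits of the NMDA receptor, behaved alike, with 4.05 and 21.9 CPM in knockout 2 and 4.52 and 21.4 CPM in wild type 2, against 23.4 to 27.9 CPM and 65.4 to 91.0 CPM in the others. In the libraries numbered 2 of the bulb, Grin2a was lower than in the others by 2.63 (knockout) and 3.52 (wild type) on the log2 scale. A level of these receptor genes averaged over 3 libraries therefore holds a low library in each genotype.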
